A study of Homo sapiens with 2 samples.

Results

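The genes described here encode 10 enzymes that make serine and pass its carbon to folate: PHGDH, PSAT1, PSPH, SHMT1, SHMT2, MTHFD1, MTHFD1L, MTHFD2, ALDH1L2 and PCK2. They were chosen by name from a table of 50867 genes, and each name had 1 row. The choice was made with the difference between the 2 libraries already known for some of them, so their ratios are a description and support nothing beyond these libraries. The RNA was from the human colorectal carcinoma line HCT116, transfected with control siRNA in 1 group and PHF5A siRNA in the other. PHF5A is a subunit of the SF3b complex, which recognises the branch point of introns during splicing. Each group was 1 library, so no test across samples was possible, no p-value is given and variation between cultures is unknown. The labels name no clone, time point or siRNA sequence, and off-target action of the siRNA and loss of PHF5A cannot be told apart.

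Serine is made from 3-phosphoglycerate, an intermediate of glycolysis. PHGDH oxidises it, PSAT1 transfers an amino group from glutamate to the product, and PSPH removes the phosphate. The serine hydroxymethyltransferases SHMT1 (cytosol) and SHMT2 (mitochondria) turn serine into glycine and load the released carbon onto tetrahydrofolate. In mitochondria MTHFD2 oxidises the loaded folate and MTHFD1L releases the carbon as formate, while ALDH1L2 burns it to CO2. In the cytosol MTHFD1 reloads formate onto folate for purine, thymidylate and methionine synthesis. PCK2, the mitochondrial phosphoenolpyruvate carboxykinase, makes phosphoenolpyruvate from oxaloacetate and can feed the pathway from below glucose. In many tumour lines the transcription factor ATF4 is known to induce genes of this group when amino acids are short or protein synthesis is stressed.

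Summed over genes, there were 26552789 counts in the control and 25897412 in the PHF5A siRNA (knockdown) library. PHF5A itself had 367 and 91 counts, 9.07 and 2.31 FPKM (a count scaled to gene length and library total), and was 3.93-fold lower in the knockdown library. A log2 ratio below is that of FPKM + 1 in the knockdown over the control library, and an expressed gene is one that reached 1 FPKM in at least 1 of them. Counts of genes past 2-fold or 1.5-fold also use FPKM + 1, unless CPM or another setting is named. The 8957 expressed genes had a median log2 ratio of -0.15 (quartiles -0.47 and 0.19), and 5552 of them were below 0, so the position of a gene is also given relative to that median. Ratios of CPM (a count scaled to the library total alone) carry a 95% exact conditional binomial interval, which covers counting error only. Reads without molecular identifiers are not independent molecules, so the interval may be too narrow even for that error. The epithelial genes EPCAM, CDH1, KRT8, KRT18 and KRT19 were expressed in both libraries, while the colon genes KRT20, CDX1 and CDH17 had 0 counts in both; 6 of 11 such markers were expressed, with summed levels of 2005 and 2010 FPKM. The sixth, the intestinal transcription factor CDX2, had 822 and 367 counts and was 2.18-fold lower by CPM (interval 1.93 to 2.48). Of 17 heart muscle markers, all 17 were expressed and 16 were at least 2-fold lower in the knockdown library. Their summed level was 320 FPKM in the control and 3.44 FPKM in the knockdown library, where 8 of them, among them MYH7, PLN and NPPA, had 0 counts. Of 8 fibroblast markers 3 were expressed, and the summed level was 11.6 and 2.81 FPKM. Of 10 hepatocyte markers 5 were expressed, with summed levels of 14.3 and 14.0 FPKM. Where the heart muscle, fibroblast and hepatocyte RNA came from was not tested. What part it has in the values below was not tested either. In such bulk RNA, fewer cells of a type and less RNA per cell cannot be told apart.

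Of the 10 genes, 9 were expressed and ALDH1L2 was not. In FPKM + 1, PCK2 and PSAT1 exceeded their control level by 2-fold or more, as did 2.53% of all expressed genes. None of the 9 was lower by that much, against 6.2% of all expressed genes, and in either direction 8.73% passed 2-fold. PSPH was 2.17-fold lower by CPM, but not with the 1 added to its FPKM. At 1.5-fold PHGDH joined PCK2 and PSAT1, against 8.45% of all expressed genes higher and 18.2% lower. Since the genes were chosen with such ratios known, nothing is read from these counts. The median log2 ratio of the 9 was 0.28, which is 0.43 above that of all expressed genes. PCK2, PSAT1, PHGDH, MTHFD2 and SHMT2 lay above the median of the expressed genes, and MTHFD1L, SHMT1, MTHFD1 and PSPH lay below it. This division was the same under each of 5 scalings of the libraries: deposited, median-centred, upper-quartile, TPM (levels rescaled to a common sum) and totals without 5 abundant small RNAs, which took 10.5% and 16.3% of all counts.

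**Figure D1:**
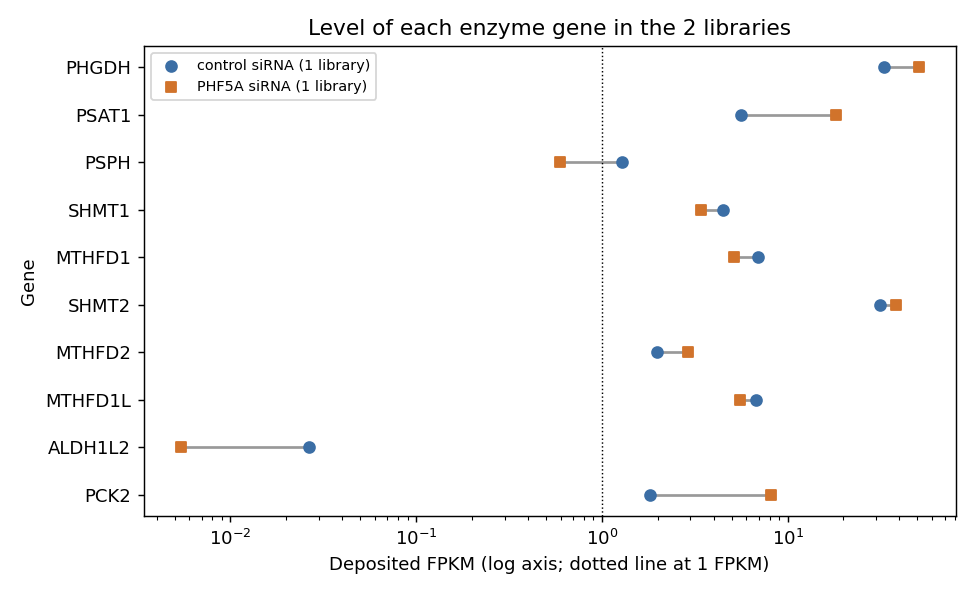
Deposited FPKM of each gene (x axis, log scale) in the control library (circles) and the PHF5A siRNA library (squares), 1 library each. PCK2 and PSAT1 show the widest gaps toward the knockdown library among the expressed genes. PSPH crosses the dotted line at 1 FPKM from 1.29 to 0.593, and ALDH1L2 is far below that line in both.

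Among the enzymes of serine synthesis, the first and the second were higher in the knockdown library and the last was lower. PHGDH (ENSG00000092621, chromosome 1, 119659798 to 119744215, GRCh38), which commits 3-phosphoglycerate to serine, had 6347 control and 9504 knockdown counts. Its level was 33.1 and 50.8 FPKM, and its CPM was 1.54-fold higher (interval 1.49 to 1.59). The log2 ratio of 0.60 was 0.75 above the median of the expressed genes and exceeded that of 92.1% of them. PHGDH was already among the more abundant transcripts, since its control FPKM exceeded that of 90.9% of the expressed genes.

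PSAT1 (ENSG00000135069, chromosome 9, 78297143 to 78330093), the aminotransferase, had 397 and 1264 counts. Its level was 5.62 FPKM in the control and 18.3 FPKM in the knockdown library, a CPM ratio of 3.26 (interval 2.91 to 3.66). The log2 ratio of 1.55 exceeded that of 99.5% of the expressed genes. Relative to PHGDH, PSAT1 had 0.0625 counts per PHGDH count before knockdown and 0.133 after, so the gap between the first and the second enzyme was narrower after knockdown.

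PSPH (ENSG00000146733, chromosome 7, 56011051 to 56051604), the phosphatase that completes the pathway, went the other way. It had 247 control and 111 knockdown counts, or 1.29 and 0.593 FPKM. By CPM it was 2.17-fold lower (interval 1.73 to 2.74). The log2 ratio with 1 added to each FPKM was only -0.52, because the added 1 is as large as the level itself. With a pseudocount of 0.1, or from CPM with 0.5 counts added, the log2 ratio was -1.001 and -1.11, and PSPH would count as at least 2-fold lower. PSPH has a pseudogene copy, PSPHP1, with 6 and 8 counts, and their sum of 253 and 119 counts still gave a ratio of 0.482 (interval 0.385 to 0.602). There were 1.61 PSAT1 counts per PSPH count before knockdown and 11.4 after.

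PCK2 (ENSG00000100889, chromosome 14, 24094053 to 24110598) had the highest ratio of the 10 genes. It had 561 and 2441 counts, and its level was 1.82 FPKM in the control and 8.12 FPKM in the knockdown library. Its CPM was 4.46-fold higher (interval 4.07 to 4.90), and its log2 ratio of 1.69 exceeded that of 99.7% of the expressed genes. The locus overlaps that of NRL, which had 29 and 65 counts. Summed with NRL, PCK2 was 4.35-fold higher (interval 3.98 to 4.77). PCK1, the cytosolic form of the same enzyme, had 20 and 34 counts and was below 1 FPKM in both libraries.

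**Figure D2:**
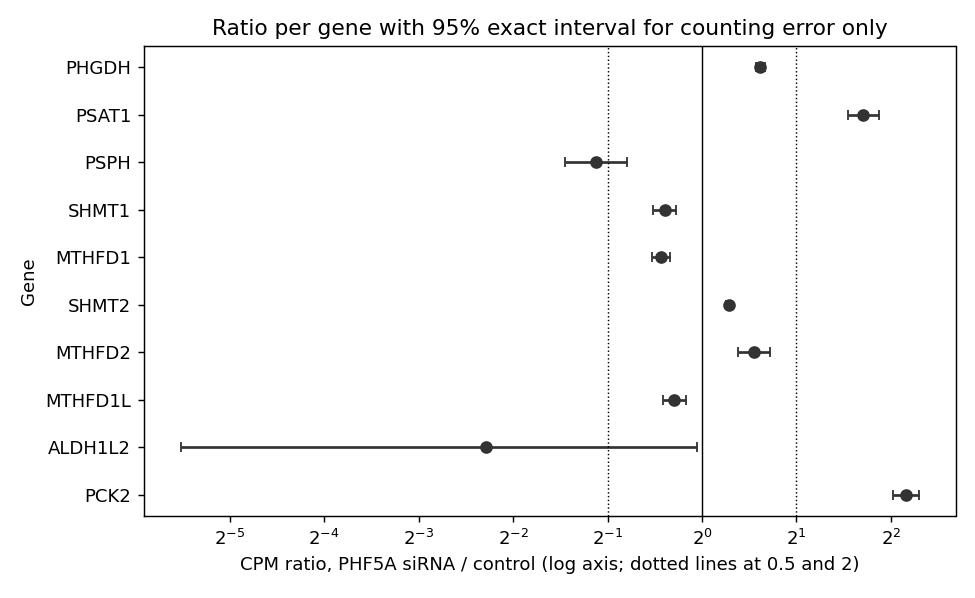
CPM ratio of the PHF5A siRNA library to the control library per gene (x axis, log scale), with bars for the 95% exact interval of counting error. The intervals of PCK2 (4.07 to 4.90) and PSAT1 (2.91 to 3.66) lie above 2, that of PSPH (0.365 to 0.579) spans 0.5, and that of ALDH1L2 is wide because it rests on 10 and 2 counts.

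The bases before the RefSeq start sites (GRCh38.p14) are shown for the 3 genes with the highest ratios, PCK2, PSAT1 and PHGDH. Those of MTHFD1L are shown as an example of a window that holds the ATF4-type core. Each run is the 250 bases before the start on the plus strand, and capitals mark matches to CCAAT (the letters of the CCAAT box) or TGATGNAA (the core of the ATF4-type element), searched on both strands.
PCK2, chr14:24094061-24094310: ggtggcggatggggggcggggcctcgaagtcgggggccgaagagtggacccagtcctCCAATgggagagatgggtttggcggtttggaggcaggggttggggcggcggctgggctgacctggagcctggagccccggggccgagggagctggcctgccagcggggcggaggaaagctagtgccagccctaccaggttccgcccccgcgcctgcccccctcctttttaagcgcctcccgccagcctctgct
PSAT1, chr9:78296875-78297124: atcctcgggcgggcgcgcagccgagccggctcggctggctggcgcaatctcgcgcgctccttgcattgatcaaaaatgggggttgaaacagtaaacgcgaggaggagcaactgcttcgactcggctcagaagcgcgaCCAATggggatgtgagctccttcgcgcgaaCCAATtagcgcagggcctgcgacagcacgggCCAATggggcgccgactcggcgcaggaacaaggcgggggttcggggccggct
PHGDH, chr1:119711684-119711933: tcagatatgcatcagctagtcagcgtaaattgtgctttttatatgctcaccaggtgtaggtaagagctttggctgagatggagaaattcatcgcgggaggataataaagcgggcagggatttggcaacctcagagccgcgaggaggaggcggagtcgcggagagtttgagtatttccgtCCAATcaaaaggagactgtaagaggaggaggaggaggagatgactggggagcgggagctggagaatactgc
MTHFD1L, chr6:150866236-150866485: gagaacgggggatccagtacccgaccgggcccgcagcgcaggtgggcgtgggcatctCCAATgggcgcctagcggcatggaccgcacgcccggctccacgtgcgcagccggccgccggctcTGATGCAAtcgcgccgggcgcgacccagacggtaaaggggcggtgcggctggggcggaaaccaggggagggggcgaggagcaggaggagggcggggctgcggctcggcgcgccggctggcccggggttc

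RefSeq promoter windows (250 bases before to 50 after a start) were matched for 7 of the 10 genes by symbol, PHGDH, PSAT1, PCK2, SHMT1, MTHFD1, MTHFD2 and MTHFD1L, of which MTHFD1L has 4. A CCAAT match on either strand was found for each of the 7, and 34.6% of all 35116 windows hold one. PSAT1 had 3 such matches, beginning 113, 83 and 52 bases before the start, and PHGDH had 1, at 71 bases. In PCK2 the match began 193 bases before the start. The ATF4-type core was found in 3.62% of all windows and, among these genes, in MTHFD1L alone, at 129 bases before the start shown. The windows of PCK2, PSAT1, PHGDH, MTHFD2, SHMT1 and MTHFD1 do not hold these letters. Elements outside the windows, or with other letters, were not searched, and any part of ATF4 in the ratios was not tested. A match is a description of the sequence and not of binding.

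The mitochondrial folate enzymes differed in direction. SHMT2 (ENSG00000182199, chromosome 12, 57229327 to 57234935) had the most counts of the 10 genes, 14956 before and 17787 after knockdown. Its level was 31.4 and 38.3 FPKM, a CPM ratio of 1.22 (interval 1.19 to 1.25). Its log2 ratio of 0.28 was above 0 in each scaling except TPM, in which it was -0.13, and above the median of the expressed genes in each of them. MTHFD2 (ENSG00000065911, chromosome 2, 74198562 to 74217565), the dehydrogenase, had 500 and 713 counts, or 1.98 and 2.90 FPKM. Its CPM ratio was 1.46 (interval 1.30 to 1.64). With 7 pseudogene entries added, which held 5 counts in each library, the ratio was also 1.46.

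MTHFD1L (ENSG00000120254, chromosome 6, 150865549 to 151101887), which releases formate, had 1308 and 1042 counts. Its level was 6.77 FPKM in the control and 5.53 FPKM in the knockdown library, a CPM ratio of 0.817 (interval 0.752 to 0.887). Its log2 ratio of -0.25 was 0.10 below the median of the expressed genes. Counts of MTHFD2 per count of MTHFD1L, the next enzyme of the same arm, were 0.382 and 0.684. ALDH1L2 (ENSG00000136010, chromosome 12, 105019784 to 105084577) had 10 and 2 counts, or 0.0263 and 0.00540 FPKM. Its ratio of 0.205 had an interval of 0.0218 to 0.962, and at this depth its level is too low to describe further.

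Both cytosolic enzymes were lower in the knockdown library under each of the 5 scalings. SHMT1 (ENSG00000176974, chromosome 17, 18327860 to 18363563) had 1265 and 938 counts, or 4.47 and 3.40 FPKM. Its CPM ratio was 0.760 (interval 0.698 to 0.828). MTHFD1 (ENSG00000100714, chromosome 14, 64388031 to 64463457) had 2209 and 1595 counts, or 6.93 and 5.13 FPKM, and a CPM ratio of 0.740 (interval 0.694 to 0.790). Their log2 ratios of -0.31 and -0.37 lie 0.17 and 0.22 below the median of the expressed genes, well within its quartiles. Several loci overlap others and may share reads. The library kit was a stranded one per the labels' protocols, but the sources used here do not give the strand setting of the counting. The largest such neighbour was SMCR8, with 543 and 528 counts, and summed with it SHMT1 had a ratio of 0.831 (interval 0.775 to 0.891). For MTHFD1 the neighbour ZBTB25 had 181 and 128 counts, and the summed ratio was 0.739.

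**Figure D3:**
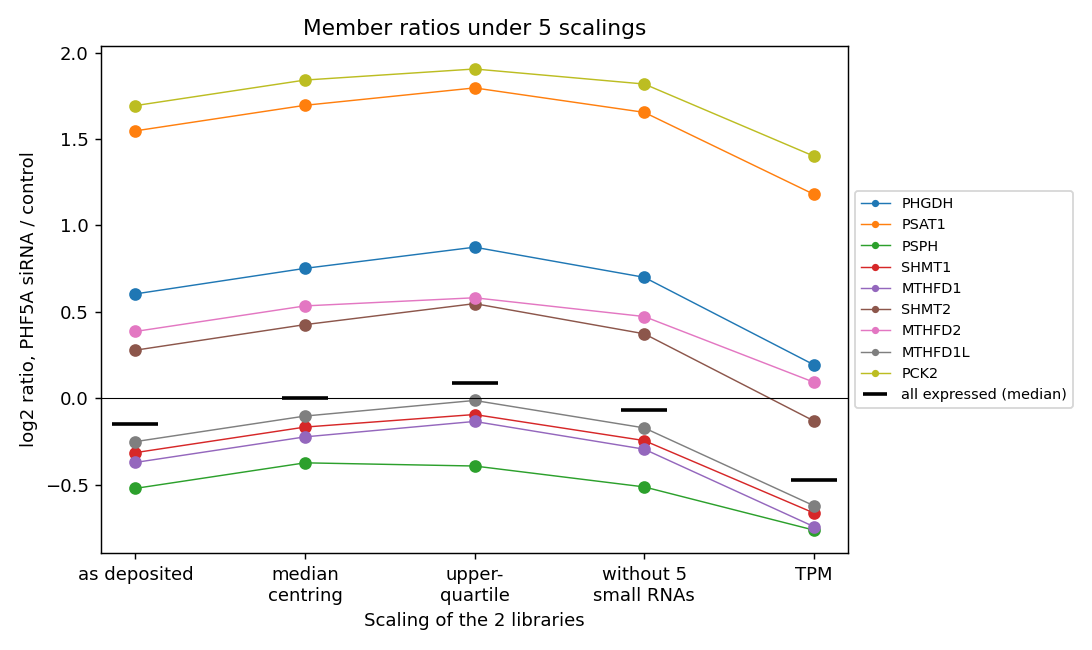
The log2 ratio of each expressed gene (y axis) under 5 ways of scaling the 2 libraries (x axis), with black bars for the median of all expressed genes. PCK2, PSAT1, PHGDH, MTHFD2 and SHMT2 lie above the bar under each scaling and the other 4 below it, while SHMT2 changes sign under TPM (-0.13).

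Within each library the 2 arms of the folate cycle can be set side by side. SHMT2 made up 87.5% of the summed SHMT1 and SHMT2 FPKM before knockdown and 91.8% after. By counts the shares were 92.2% (exact binomial interval 91.8 to 92.6%) and 94.99% (94.7 to 95.3%). The 4 mitochondrial enzymes made up 77.9% of the summed FPKM of the 6 folate enzymes before knockdown and 84.5% after. By counts these shares were 82.8% (82.3 to 83.4%) and 88.5% (88.1 to 88.9%). SHMT2 alone held 14956 of the 16774 control counts of the 4 mitochondrial enzymes and 17787 of the 19544 knockdown counts. Of the others, MTHFD2 was higher and MTHFD1L and ALDH1L2 were lower after knockdown. The intervals of the 2 libraries do not overlap, but they hold counting error only, and whether other cultures would differ as much was not tested. Relative to MTHFD1, its cytosolic counterpart, MTHFD2 went from 0.226 to 0.447 counts per count. The 10 genes together summed to 1047 CPM in the control and 1367 CPM after knockdown, of which PHGDH and SHMT2 held 76.6% and 77.1%.

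The level of 1 gene against another depends on the gene length behind the deposited FPKM. Dividing the counts by the FPKM gives that length, and for SHMT2 it was 17953 bases, although the whole locus spans 5609 bases. For 85.9% of 11920 genes with at least 50 control counts, and for 9 of the 10 enzymes, it matched within 0.1% the sum of all distinct annotated exons in GENCODE release 29, in which a base is counted once for each exon version that covers it. PHGDH is the exception, with 7228 bases against 19533 in that release. Its merged exons there, 9217 bases, are longer than the implied length, so the authors' gene model of PHGDH differed from that release. Dividing instead by merged exons, in which each base counts once, put SHMT2 at 116 FPKM in the control and 142 FPKM in the knockdown library. PHGDH came to 25.9 and 39.8 FPKM on that scale. SHMT2 was thus 0.949 times PHGDH in the control library by the deposited FPKM and 4.49 times by merged exons, a move that for PHGDH also holds the other gene model. PCK2 came to 5.04 and 22.5 FPKM, near PSAT1 at 6.83 and 22.3 FPKM, although the deposited levels of PCK2 were well below those of PSAT1. PSPH came to 3.37 and 1.55 FPKM and MTHFD2 to 3.87 and 5.65 FPKM. The ratio between libraries is the same for either length except through the added 1, and PCK2's log2 ratio became 1.96 and PSPH's -0.78. On that scale PCK2 and PSAT1 were again the 2 past 2-fold, with 2.6% of expressed genes higher and 7.07% lower by 2-fold.

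**Figure D4:**
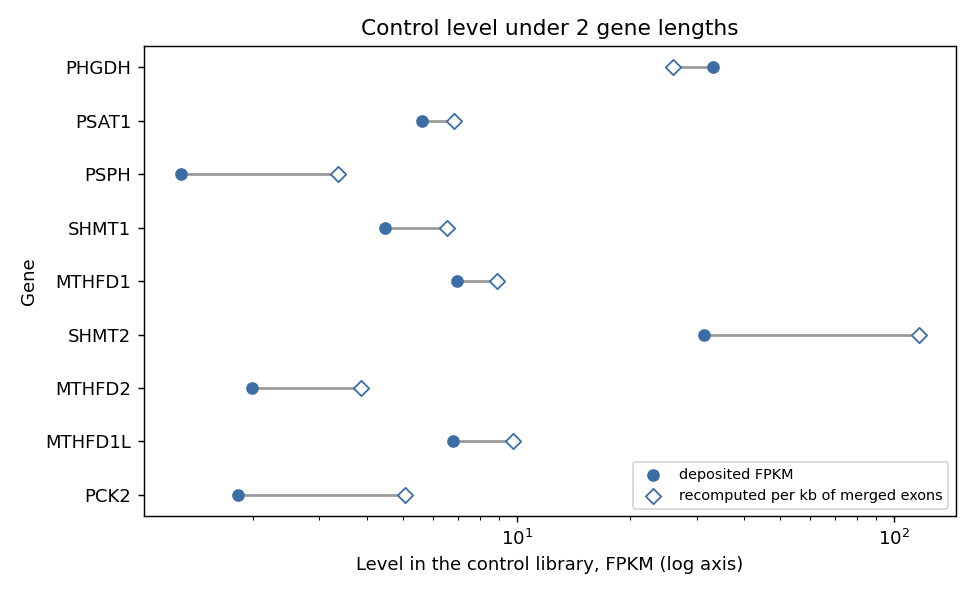
Level in the control library (x axis, log scale) of the 9 expressed genes, as deposited (filled circles) and recomputed per kilobase of merged GENCODE exons (open diamonds). SHMT2 shifts the most, from 31.4 to 116 FPKM, and PHGDH, whose gene model differs from GENCODE release 29, is the only one that shifts down, from 33.1 to 25.9 FPKM.

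By the merged-exon scale the control levels ran, from the highest, SHMT2, PHGDH, MTHFD1L (9.81), MTHFD1 (8.87), PSAT1 (6.83), SHMT1 (6.54), PCK2 (5.04), MTHFD2 (3.87), PSPH (3.37) and ALDH1L2 (0.0443 FPKM). With 1 library per group, the order of close neighbours such as PSAT1 and SHMT1 has no replicate check. In the knockdown library PCK2 and PSAT1 stood next after PHGDH on this scale. The longest coding transcripts had 28 exons for MTHFD1L and 27 for MTHFD1, both lower after knockdown, and 15 for PHGDH, 12 for SHMT2, 10 for PCK2, 9 for PSAT1 and 8 for MTHFD2, which were higher on the deposited scale. PSPH with 8 and SHMT1 with 12 exons were lower.

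Of 19 other folate genes listed for uptake, transport and folate use, 11 were expressed, with 0 past 2-fold upward and 1, SFXN3, downward. Log2 ratios below 0 were found for 10 of the 11, against 5552 of all 8957 expressed genes. Their median log2 ratio of -0.39 was 0.24 below that of all expressed genes and stayed below it under each of the 5 scalings. SFXN3, a relative of the mitochondrial serine carrier SFXN1, had 3713 and 1195 counts and a log2 ratio of -1.42. SLC25A32, the mitochondrial folate carrier, had 482 and 273 counts (log2 ratio -0.56), and TYMS, thymidylate synthase, had 964 and 607 (-0.55). MTHFS, which returns formyl folate to the pool, had 113 and 61 counts (-0.50). On the cell proliferation list 7 of 8 expressed genes had a log2 ratio below 0, against the same 5552 of 8957, and BIRC5, at -1.08, was the lowest. What part proliferation has in the values was not tested.

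The methionine cycle takes carbon from folate. Of 16 genes listed for that cycle, transsulfuration and polyamine synthesis, 9 were expressed, with 0 past 2-fold upward and 2 downward. Their median log2 ratio of -0.46 was 0.31 below that of the expressed genes. MAT2A, which makes S-adenosylmethionine, had 12552 control and 4062 knockdown counts. Its level was 73.7 and 24.4 FPKM, which is 3.01-fold lower by CPM (interval 2.91 to 3.12). SMS, spermine synthase, had 636 and 195 counts and was 3.18-fold lower (interval 2.71 to 3.75). MAT1A, the liver form of MAT2A, had 257 and 81 counts (log2 ratio -0.90), and AMD1, which opens polyamine synthesis, had 798 and 439 (-0.48). By CPM MAT1A was 3.09-fold lower (interval 2.40 to 4.02), so only the added 1 keeps it out of the 2 downward genes. SRM, spermidine synthase, was higher, with 6406 and 8448 counts (0.43). The KEGG pathway of cysteine and methionine metabolism, with 25 expressed genes, also had 0 past 2-fold upward and 2 downward, and its median was only 0.11 below that of the expressed genes.

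Purine synthesis, a main user of formyl folate, stayed near the expressed genes. Of its 12 genes 11 were expressed, and their median was 0.03 above that of all expressed genes, with 0 at least 2-fold higher and 1 lower. That gene was ADSL, adenylosuccinate lyase, with 1445 and 559 counts and a log2 ratio of -1.004, which did not reach 2-fold with median centring, upper-quartile scaling or totals without small RNAs. With TPM scaling 2 genes of the list were past 2-fold downward. PRPS1, which makes the ribose phosphate donor, had 848 and 399 counts (-0.91), and GMPS, which makes GMP, had 448 and 723 (0.51). By CPM PRPS1 was 2.07-fold lower (interval 1.84 to 2.34), so only the added 1 keeps it below 2-fold. Of the 6 lower glycolysis genes none passed 2-fold as deposited, and ENO1, enolase, did with TPM scaling (log2 ratio -1.31). Its deposited log2 ratio was -0.89, and PGK1, which makes 3-phosphoglycerate, had -0.54. ALDOA, aldolase, had 0.56, and GAPDH had 0.35 as deposited and -0.07 with TPM scaling.

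Of the genes that use or carry serine, none passed 2-fold in deposited FPKM + 1, although SDSL and SLC38A1 did by CPM. The list for serine in lipids and serine breakdown had 9 expressed genes of 12, and a median of -0.39. PTDSS2 and PTDSS1, the phosphatidylserine synthases, had log2 ratios of -0.50 and -0.49, and SPTLC2, a serine palmitoyltransferase subunit, had -0.49. SDSL, a serine dehydratase-like enzyme, had 634 and 1247 counts (log2 ratio 0.93). By CPM the ratio was 2.02 (interval 1.83 to 2.22), and SDSL passed 2-fold with median centring (1.07), upper-quartile scaling (1.18) and totals without small RNAs (1.03). Among 7 serine and glycine transporters 5 were expressed, and the largest log2 ratios were -0.75 for SLC38A1 and 0.50 for SLC6A9, the glycine transporter. SLC38A1, a carrier of neutral amino acids, had 818 and 320 counts, was 2.49-fold lower by CPM (interval 2.19 to 2.85) and reached a log2 ratio of -1.04 with TPM scaling. In glycine cleavage and use 3 of 7 genes were expressed, and GCAT, which splits a threonine product to glycine, had -0.33. The 3 cleavage-system genes GLDC, AMT and GCSH were all below 1 FPKM, with at most 61 counts in either library.

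Amino acid enzymes outside serine synthesis were also listed. Of 13 genes 12 were expressed, 2 passed 2-fold upward and 0 downward, and their median was 0.04 above that of all expressed genes. With TPM scaling 1 passed 2-fold upward and 3 downward. ASNS, asparagine synthetase, had 611 and 1910 counts and was 3.21-fold higher by CPM (interval 2.92 to 3.52). GPT2, the mitochondrial alanine aminotransferase, had 838 and 1980 counts and was 2.42-fold higher (interval 2.23 to 2.63). In the pyruvate branch, which PCK2 joins, none of 6 expressed genes passed 2-fold in deposited FPKM + 1. By CPM, to which no 1 is added, 3 did: PC was 2.19-fold lower, MDH1, malate dehydrogenase, 2.02-fold lower and ME1 2.09-fold higher. With upper-quartile scaling ME1 had a log2 ratio of 1.05, and with TPM scaling PC and MDH1 had -1.34 and -1.18. PC, pyruvate carboxylase, had 2310 and 1029 counts (log2 ratio -0.96), and ME1, malic enzyme, had 230 and 469 (0.84). On the glutathione list 3 of 6 genes were expressed, and CHAC1, which degrades glutathione, had the largest log2 ratio at 1.38.

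Of the regulators tied to these enzymes, 7 lay above the median of the expressed genes. Of 14 listed, 11 were expressed, 2 passed 2-fold upward and 0 downward, and the list median was 0.87 higher than that of all expressed genes. DDIT3 (0.314 and 1.81 FPKM) and ATF3 (0.477 and 1.67 FPKM) count as expressed only through the knockdown library, where they are high. The 7 and the list median include both, and DDIT3 is 1 of the 2 past 2-fold. Nothing is therefore read from this list median. ATF4 had 4207 and 6875 counts, 38.5 and 64.4 FPKM, and a log2 ratio of 0.73. DDIT3, the stress factor CHOP, had 50 and 281 counts and was 5.76-fold higher by CPM (interval 4.25 to 7.95). TRIB3, an inhibitor that ATF4 is known to induce, had a log2 ratio of 1.86, ATF3 had 0.85 and MYC had 0.78. By CPM ATF3, with 123 and 419 counts, was 3.49-fold higher (interval 2.85 to 4.31), and the 1 added to its FPKM lowers its log2 ratio. EIF2AK1, a kinase of the stress response, was lower, with 1321 and 649 counts (log2 ratio -0.80), and ATF5 had -0.63. MYC and ATF5 are named here after their values were seen. With TPM scaling this list had 1 gene at least 2-fold higher and 2 lower. With upper-quartile scaling it had 4 higher, among them ATF4 (log2 ratio 1.001) and MYC (1.05), and 0 lower. The list median was 0.60 above that of all expressed genes with TPM and 0.54 above it with upper-quartile scaling.

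The annotation columns of the deposited table give a second set of lists that were not drawn up for these genes. The KEGG pathway of one carbon pool by folate holds 18 genes of the table and 6 of the 10 enzymes. Outside these, 4 of its genes were expressed, with log2 ratios from -0.55 (TYMS) to -0.12 (ATIC), and none was past 2-fold. The KEGG pathway of glycine, serine and threonine metabolism holds 39 genes and 5 of the 10 enzymes. Outside these, 12 were expressed, with 0 at least 2-fold higher and 2 lower, PGAM2 (34 and 0 counts) and CHDH (576 and 154), named here after their values were seen. Their median was 0.22 above that of the expressed genes. The genes of at least 5 FPKM whose ratio was nearest to the median of the 9 expressed enzymes were ATXN2L, STRN4, NAT14, ZNF593 and PPP6R1, each with a log2 ratio of 0.28. Over 2 libraries such likeness is a match of 1 number.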

How the data were processed

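RNA was extracted with Trizol and per the labels' protocols the libraries came from a TruSeq Stranded Total RNA kit. For each gene the deposited table holds raw counts and FPKM of both libraries, per the file headers. HISAT2 2.0.4, Cuffdiff and hg38 (GRCh38) are named in the submitters' processing notes; the sources used here give neither annotation release nor strand setting. The length that the authors' FPKM implies for a gene differed between libraries by at most 0.0241%. Of the table, 2 lines of 1 broken entry were left out. The members and lists were chosen with earlier results of these data known. Named genes are the 10 enzymes, PHF5A, ATF4, DDIT3, TRIB3, up to 4 expressed genes per list with the largest log2 ratios in size, and the 5 protein-coding genes of at least 5 FPKM with the log2 ratio nearest to the members' median; genes outside this rule were added after their values were seen. A gene that the rule picks is not reported here. Gene lengths and exons came from GENCODE release 29, which held 50110 of the 50867 rows. The KEGG lists and merged exon lengths were added after the values were seen. Alternatives were 2 pseudocounts, 2 filters, 4 scalings, CPM, summed pseudogene entries, a 1.5-fold threshold and merged exon lengths. The ratio calculation was tested on simulated data. Computation used scipy 1.17.1, pandas 2.3.3, numpy 2.4.6, matplotlib 3.10.9 and Python 3.11.15.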

Additional observations from a re-analysis of the deposited data

How the results depend on the processing

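No paired analysis was possible because neither group had replicates. PCK2 and PSAT1 stayed at least 2-fold higher under each alternative run, and with a 1.5-fold threshold PHGDH joined them, making 3. The number of enzymes at least 2-fold lower went from 0 to 1 (PSPH) with a pseudocount of 0.1 and with CPM and a prior count of 0.5; with a pseudocount of 0.5 it stayed 0. The median log2 ratio of the expressed enzymes, 0.28, became 0.12 with no filter (all 10 enzymes), 0.44 with a minimum of 5 FPKM (6 enzymes), 0.43 with median centring, 0.55 with upper-quartile scaling and -0.13 with TPM. Relative to all expressed genes it was 0.43, and it became 0.17 with no filter and 0.58 with the higher minimum; fewer or more genes enter in both. All expressed genes had a median of -0.47 with TPM and 0.09 with upper-quartile scaling. The genes at least 2-fold higher and lower, 227 and 555, became 345 and 358 with median centring, 412 and 330 with upper-quartile scaling, 317 and 515 without 5 small RNAs in the totals, and 107 and 1405 with TPM. The SHMT2 share moved from 87.5% and 91.8% (control, knockdown) to 92.2% and 94.99% by counts and 94.7% and 96.6% with merged exon lengths. The mitochondrial share moved from 77.9% and 84.5% to 82.8% and 88.5% by counts and to 89.4% and 93.1% with merged exon lengths, higher in the knockdown library each time. The merged exon lengths were chosen after seeing the data. Depth limits ALDH1L2 most, with 10 and 2 counts, and then PSPH.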
